A study of Mus musculus with 2 samples.

Results

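Caveolins and cavins build caveolae, and the 9 genes described here are the 3 caveolins (Cav1, Cav2, Cav3), the 4 cavins (Cavin1, Cavin2, Cavin3, Cavin4) and 2 accessory genes (Ehd2, Pacsin2). They were chosen by symbol, from 32574 genes in the count files, and all 9 were found. They were followed across the cell types of ischaemic mouse adductor muscle and between 2 genotypes. The muscle was taken on day 7 after ligation of the femoral artery, digested with collagenase D and sequenced as droplet single-cell libraries. One library came from WT control littermates and the other from Apoa1bp-/- mice, which the genotype label calls AIBP-KO. In each genotype 4 mice were operated on, and the labels do not state any pooling. With 1 library per genotype the differences below have no replicate check, and no test between genotypes was made. Strain, sex and age are not given in the labels used here.

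Caveolae are flask-shaped pits of the plasma membrane, rich in cholesterol, that are abundant in endothelial cells, smooth muscle, fibroblasts and muscle fibres. Caveolin-1, or caveolin-3 in striated muscle, is inserted into the membrane, and caveolin-2 joins it in mixed oligomers. Cavins coat the pit from the cytosol: cavin-1 is needed for caveolae to form, cavin-2 and cavin-3 are its partners, and cavin-4 is the form of striated muscle. EHD2 is an ATPase at the neck that holds the pit at the surface, and pacsin-2 is a membrane-bending F-BAR protein. The deleted gene, Apoa1bp (now Naxe), encodes AIBP, known as a secreted partner of apolipoprotein A-I that speeds the removal of cholesterol from cells.

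The 2 broadly used caveolins and the 2 muscle forms are shown by the 250 bases that lie before their start sites, because their levels below separate by cell type. The sequences are from RefSeq on GRCm38.p6, written 5′ to 3′ on the strand of the gene. Capitals mark the E-box CANNTG, the motif that myogenic factors such as MyoD and many other factors can bind, and the TATA box TATAAA on either strand. Windows were found for 8 of the 9 genes, and Cavin3 had none.
Cav1: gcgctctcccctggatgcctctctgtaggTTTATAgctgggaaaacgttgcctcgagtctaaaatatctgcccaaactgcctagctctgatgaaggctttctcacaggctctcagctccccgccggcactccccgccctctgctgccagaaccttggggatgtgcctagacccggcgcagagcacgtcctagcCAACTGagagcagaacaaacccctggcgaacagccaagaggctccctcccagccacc
Cav2: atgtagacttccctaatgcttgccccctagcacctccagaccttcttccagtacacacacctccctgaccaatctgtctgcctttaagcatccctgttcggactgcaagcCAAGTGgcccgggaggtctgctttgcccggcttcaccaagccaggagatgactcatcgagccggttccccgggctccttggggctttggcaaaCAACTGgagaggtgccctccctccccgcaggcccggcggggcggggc
Cav3: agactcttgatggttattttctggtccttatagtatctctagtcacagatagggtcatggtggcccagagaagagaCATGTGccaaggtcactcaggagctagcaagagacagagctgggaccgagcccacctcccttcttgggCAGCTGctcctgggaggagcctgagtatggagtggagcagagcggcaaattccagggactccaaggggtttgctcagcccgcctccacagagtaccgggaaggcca
Cavin4: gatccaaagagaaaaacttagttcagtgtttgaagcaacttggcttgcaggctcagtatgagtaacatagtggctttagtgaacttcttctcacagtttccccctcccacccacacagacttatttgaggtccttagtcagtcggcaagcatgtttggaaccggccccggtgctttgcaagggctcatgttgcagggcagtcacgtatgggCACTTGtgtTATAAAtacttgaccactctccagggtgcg
They lie at chr6:17306085-17306334 (Cav1, plus strand), chr6:17280935-17281184 (Cav2, plus strand), chr6:112459255-112459504 (Cav3, plus strand) and chr4:48663264-48663513 (Cavin4, plus strand). Cav2 precedes Cav1 as its direct neighbour on chromosome 6. The Cavin4 window has a TATA box starting 30 bases before the start site and an E-box starting 39 bases before it. The Cav3 window has E-boxes 174 and 106 bases before the start and no TATA box, and the Cav2 window has E-boxes at 140 and 47. Of 2 Cav1 windows, the one shown has an E-box at 57 and a TATAAA on the other strand at 221. The other, at chr6:17307390-17307639, has an E-box at 158 and no TATA box. Of 32851 such windows of 250 bases, 66.2% hold an E-box and 12.4% a TATA box, so these matches describe the letters and name no binding site.

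The libraries held 80954991 (WT) and 80444279 (Apoa1bp-/-) unique molecular identifiers (UMIs, each a captured RNA molecule). After filtering, 12371 WT and 8596 Apoa1bp-/- cells remained, with medians of 4170 and 6596.5 UMIs. Naxe had 3345 UMIs in the WT cells, 49.9 CPM (the usual depth-scaled count, a gene's UMIs over all UMIs of the same cells). In the Apoa1bp-/- cells it had 0, which allows up to 0.0415 CPM. The libraries shared 43 cell barcodes. Each cell was given a type by gates on 10 marker genes per type, none of them a caveolin, cavin or accessory gene, and each name below stands for its gate. In every gated type of 50 or more cells per library, genes of its own list were among its 10 leading genes by fold, though only 1 was in muscle fibres. Cells were chosen by these same genes, so this is no check of the gates. Among the leading genes, 1 gene of another list was found, in Apoa1bp-/- myogenic progenitors only. Levels are CPM of the UMIs summed over the cells of a type, with exact 95% Poisson intervals that cover counting error only.

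Cav1 was an endothelial transcript first, at 3533 CPM in WT and 2640 CPM in Apoa1bp-/- endothelial cells (355 and 331 cells). Mural cells, the pericytes and smooth muscle around vessels, followed at 737 and 500 CPM (169 and 197 cells). Myogenic progenitors held 271 and 146 CPM, Schwann cells 204 and 136 CPM, fibroblasts 128 and 77.8 CPM, and muscle fibres 77.2 and 45.2 CPM. Macrophages and monocytes were at 15.7 and 8.98 CPM. The order of these 7 types was the same in both libraries, and the intervals of progenitors and Schwann cells overlapped in both. T and NK cells, which are not known for caveolae, held 16.4 and 6.53 CPM from 8 and 5 UMIs. After every cell was thinned to 1000 UMIs, 89.8% of 284 WT and 87.7% of 309 Apoa1bp-/- endothelial cells still held a Cav1 UMI (95.2% and 97.0% before). The same share was 2.62% of 191 WT T and NK cells (3.67% before). It was 0 of 227 Apoa1bp-/- T and NK cells, which allows up to 1.32% with a UMI at that depth and sets no limit on cells that express the gene (1.69% before). T and NK cells had median depths of 1922.5 and 2747.5 UMIs. Endothelial median depths were 2228 and 6943 UMIs.

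**Figure D1:**
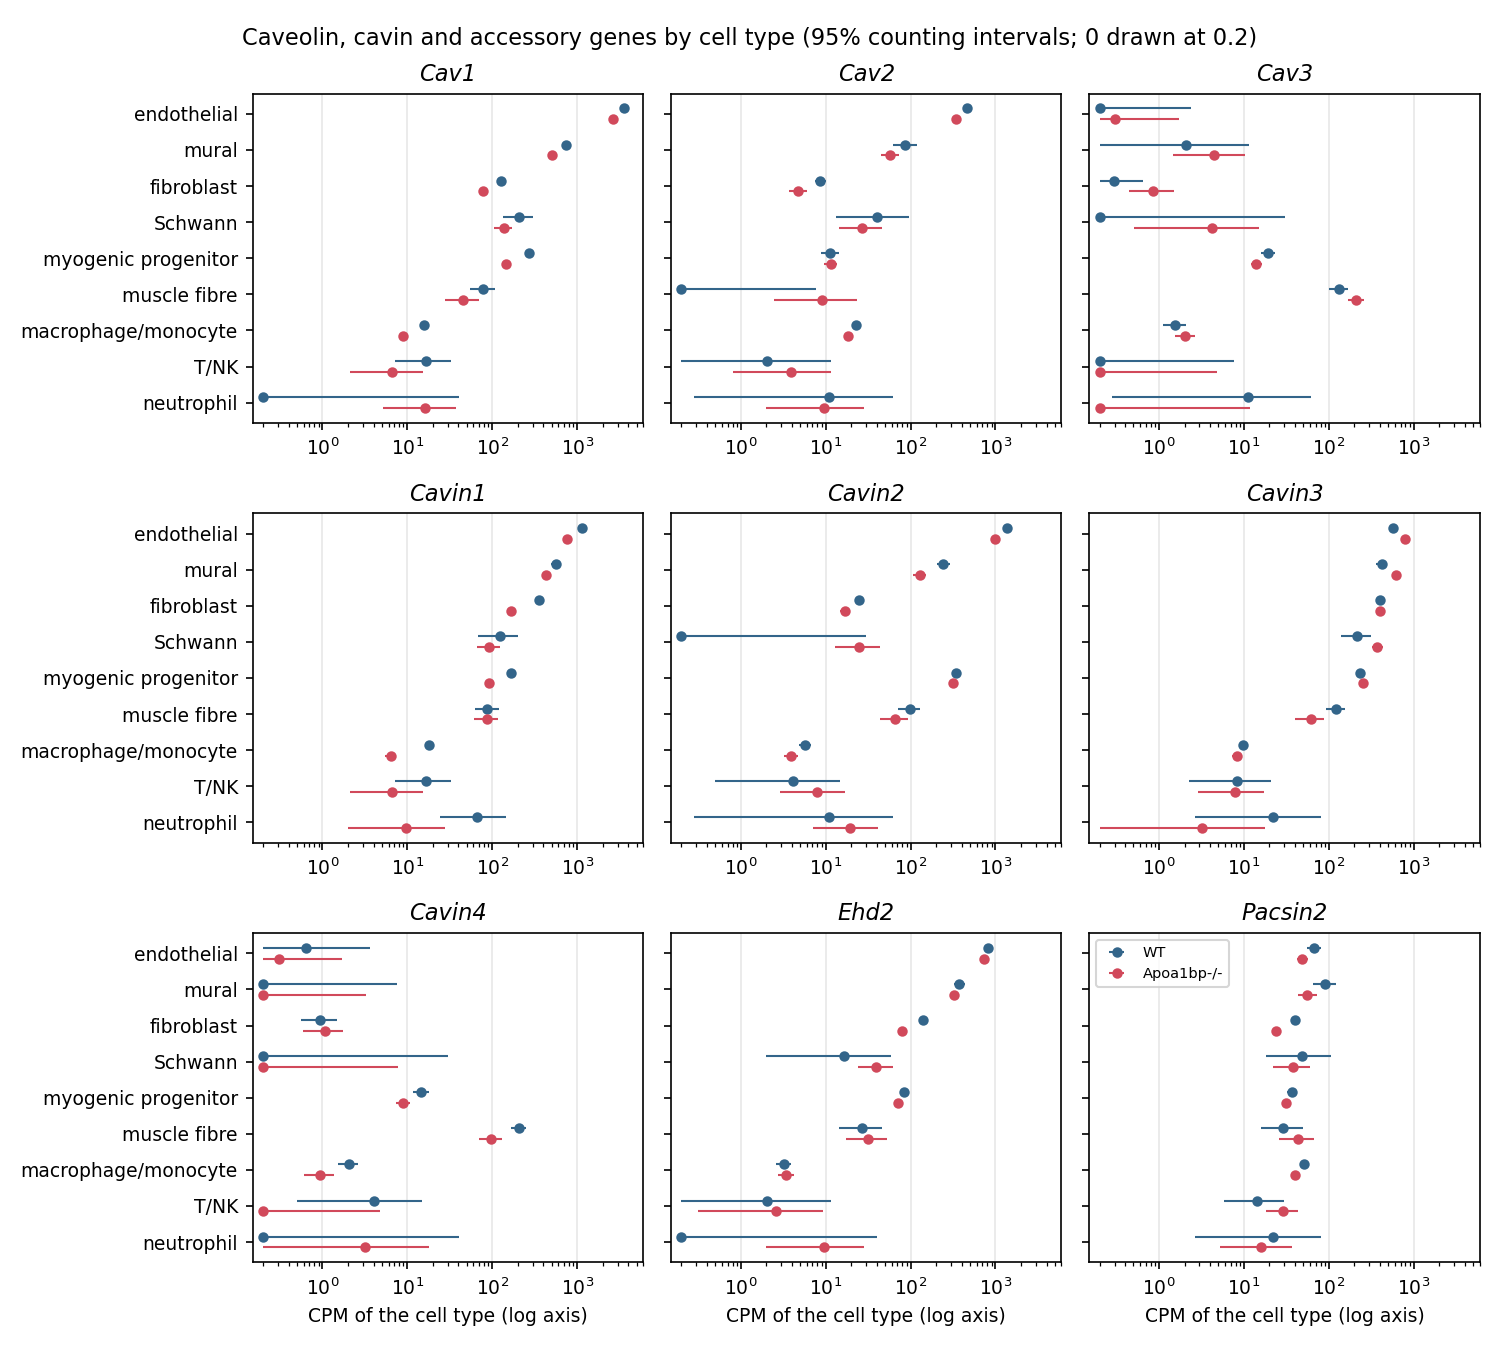
Levels of the 9 genes by cell type. The x axis is CPM on a log scale, points are the WT (blue) and Apoa1bp-/- (red) libraries, bars are 95% counting intervals and a level of 0 is drawn at 0.2. Cav1, Cav2, Cavin1, Cavin2, Cavin3 and Ehd2 are highest in endothelial cells in both libraries, while Cav3 and Cavin4 are highest in muscle fibres.

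Cav2 followed Cav1 in vessels, with 460 and 347 CPM in WT and Apoa1bp-/- endothelial cells and 87.0 and 57.9 CPM in mural cells. It made up 11.5% (interval 10.7 to 12.3) and 11.6% (10.99 to 12.3) of the joint Cav1 and Cav2 UMIs in endothelial cells. In fibroblasts the share was 6.36% and 5.76%. Macrophages and monocytes stood apart from the vessel cells and fibroblasts: Cav2 had 623 UMIs, or 22.7 CPM (20.9 to 24.5), in WT and 502 UMIs, or 18.6 CPM (17.0 to 20.3), in Apoa1bp-/-. In macrophages it made up 59.1% (56.1 to 62.1) and 67.4% (63.9 to 70.7) of the joint UMIs. These shares lie far above those of endothelial cells, mural cells (10.6% and 10.4%) and fibroblasts in both libraries. T and NK cells held 1 and 3 Cav2 UMIs, 2.05 and 3.92 CPM, beside 8 and 5 of Cav1. Their Cav2 shares were 11.1% (0.281 to 48.2) in WT and 37.5% (8.52 to 75.5) in Apoa1bp-/-. The Apoa1bp-/- interval overlapped that of macrophages. Neutrophil Cav2 was at 11.1 (0.280 to 61.6) and 9.60 CPM (1.98 to 28.1), with Cav1 at 0 and 16.0 CPM. A macrophage share apart from that of all other leukocytes is therefore not shown. In macrophages that passed the cycling gate, Cav2 reached 35.0 CPM (29.8 to 41.0) in 441 WT cells and 29.7 CPM (25.2 to 34.8) in 342 Apoa1bp-/- cells. It was at 20.3 CPM (18.5 to 22.2) and 15.9 CPM (14.3 to 17.7) in the others, so these intervals did not overlap in either library. Cav1 differed in the same direction there, at 25.4 against 13.8 CPM in WT and 16.1 against 7.30 CPM in Apoa1bp-/-. So did Cavin1 (29.6 against 15.8 in WT, 8.55 against 5.89 in Apoa1bp-/-) and Cavin3 (18.9 against 8.12, 12.6 against 7.21). Pacsin2 was at 48.3 against 51.1 CPM in WT and 39.1 against 40.4 CPM in Apoa1bp-/-. The cycling gate was passed by 8.60% of WT and 9.68% of Apoa1bp-/- macrophages, and by 2.96% and 3.06% after thinning. Passing the gate thus depended on depth, and the part of depth in the differences between cycling and other macrophages was not tested. After thinning, 2.19% of WT and 1.47% of Apoa1bp-/- macrophages held a Cav2 UMI (10.3% and 11.7% before), so most cells of the type had none detected at this depth.

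**Figure D2:**
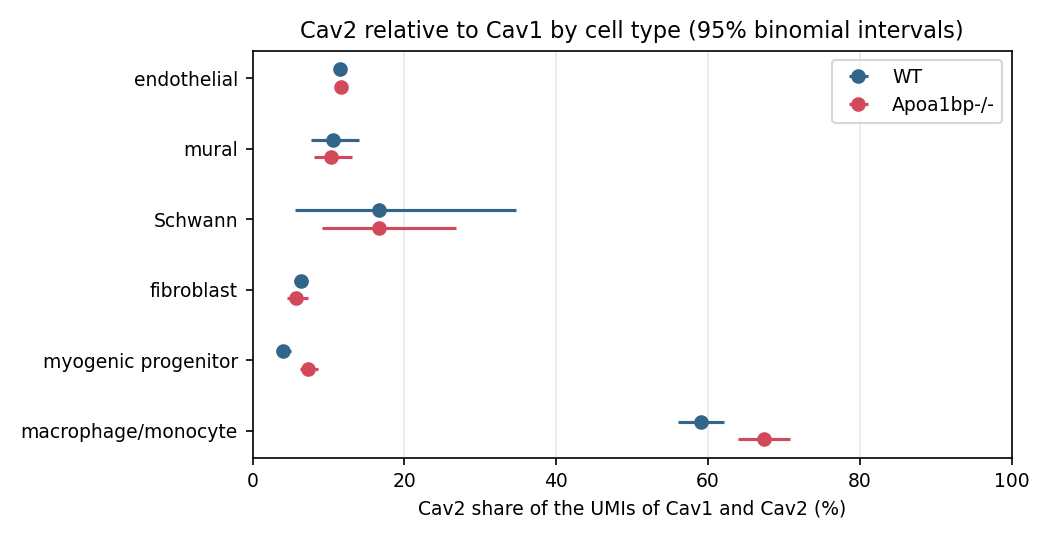
Cav2 as a percent of the UMIs of Cav1 and Cav2 together (x axis, 0 to 100%) in 6 cell types, WT in blue and Apoa1bp-/- in red, with exact 95% binomial intervals. Macrophages and monocytes sit at 59.1% and 67.4%, and the other 5 types drawn at 16.7% or less. Other leukocytes are not drawn.

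Cav3, the caveolin of striated muscle, and Cavin4, its cavin counterpart, were muscle transcripts. The 153 WT muscle-fibre barcodes held 63 UMIs of Cav3, or 131 CPM (101 to 168), and the 197 Apoa1bp-/- ones held 93, or 210 CPM (170 to 258). The same barcodes held 98 and 43 UMIs of Cavin4, or 205 CPM (166 to 249) and 97.2 CPM (70.3 to 131). Their median depths, 1255 and 1306 UMIs, were the lowest of the 7 types compared. Cav3 had 0 and 1 UMIs and Cavin4 1 and 1 UMIs over all WT and Apoa1bp-/- endothelial cells. Macrophages held 42 and 55 Cav3 UMIs (1.53 and 2.03 CPM) and 56 and 25 Cavin4 UMIs (2.04 and 0.924 CPM). Cavin4 was 57.1% of the joint Cavin4 and Cav3 UMIs in WT macrophages and 60.9% in WT fibres. In Apoa1bp-/- it was 31.2% and 31.6%, and the intervals of the 2 types overlapped within each library.

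Along the myogenic gates the muscle forms were higher in later stages and Cav1 was lower. Cav3 was at 7.64 CPM in WT satellite cells, 51.4 CPM in committed myocytes (cells with Myog and fusion genes) and 131 CPM in fibres. In Apoa1bp-/- the levels were 3.66, 33.6 and 210 CPM. Cavin4 was at 4.91, 39.6 and 205 CPM in WT, and at 1.17, 20.5 and 97.2 CPM in Apoa1bp-/-. For both genes the intervals of successive stages did not overlap in either library. Cav1 ran the other way, from 341 CPM in WT satellite cells to 93.8 in committed myocytes and 77.2 in fibres, and from 217 to 39.3 and 45.2 CPM in Apoa1bp-/-. The last 2 stages overlapped in both libraries for Cav1. Cavin2 was at 398, 215 and 98.1 CPM in WT and at 360, 241 and 65.6 CPM in Apoa1bp-/-, with no overlap between stages. The fibre gate also held the 10 progenitor markers at 1027 (WT) and 1058 CPM (Apoa1bp-/-) and the 10 macrophage markers at 271 and 224 CPM. The part of such RNA in the fibre levels was not tested. The fibre level of Cav3 over that of all progenitors was 2.77 (WT) and 3.90 (Apoa1bp-/-) on the log2 scale. It was 2.00 and 2.40 when cells were gated after thinning.

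**Figure D3:**
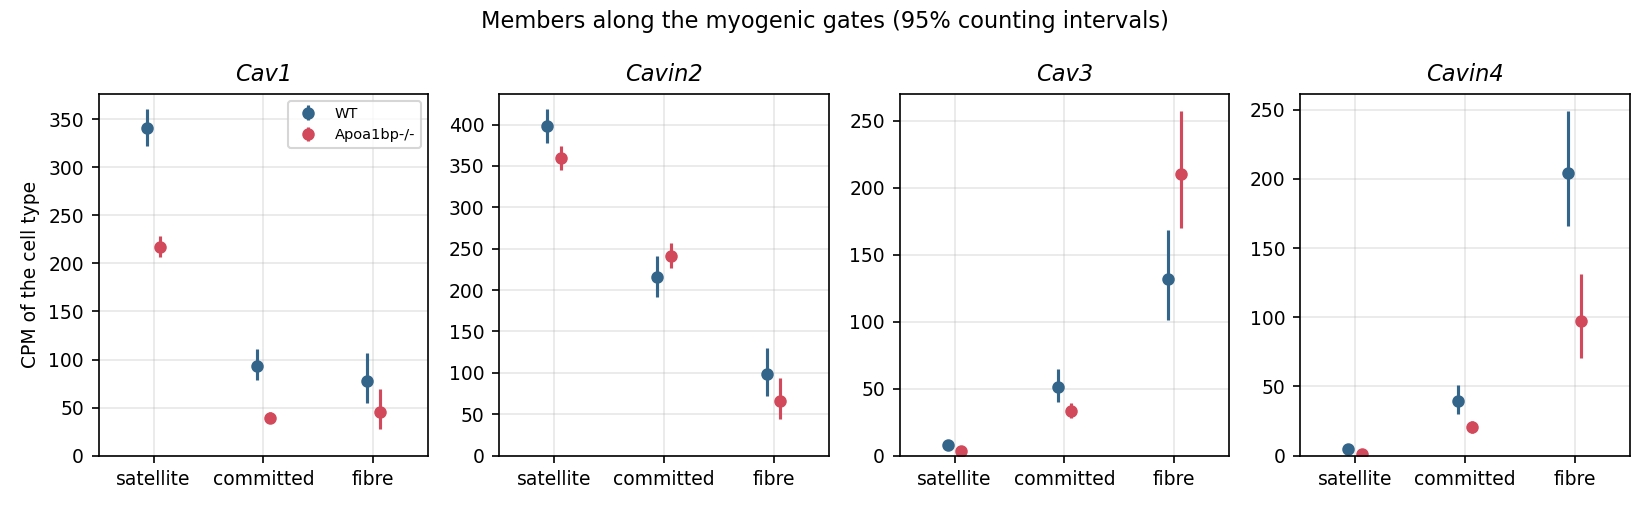
Cav1, Cavin2, Cav3 and Cavin4 in the satellite-cell, committed-myocyte and muscle-fibre gates (y axis, CPM, from 0; bars, 95% counting intervals; WT blue, Apoa1bp-/- red). Cav3 and Cavin4 are highest in fibres and Cav1 and Cavin2 in satellite cells, in both libraries.

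Cavin1, the coat protein that all caveolae need, was at 1135 and 768 CPM in WT and Apoa1bp-/- endothelial cells, 561 and 430 CPM in mural cells and 355 and 166 CPM in fibroblasts. Within the mural gate it was highest in the 21 and 32 smooth muscle cells, at 1663 and 1085 CPM, against 324 and 243 CPM in pericytes. Cavin2 was led by endothelial cells at 1354 and 992 CPM, with myogenic progenitors next at 340 and 315 CPM, ahead of mural cells at 244 and 128 CPM. Among endothelial subsets, the 16 and 9 lymphatic cells held the highest Cavin2, at 1846 (1576 to 2149) and 1209 CPM (1017 to 1427), beside 1513 and 1065 CPM in capillary cells. The lymphatic and capillary intervals overlapped in both libraries. Lymphatic Cav1 was the lowest of the subsets, at 1279 and 1054 CPM, against 3669 and 2851 CPM in capillaries and 3821 and 2312 CPM in arterial cells. Cavin3 was spread widely: 574 and 792 CPM in endothelial cells, 421 and 620 CPM in mural cells, 402 and 397 CPM in fibroblasts, 232 and 256 CPM in progenitors. An exon of Cavin3 overlaps Gm45667 on the opposite strand, which is not among the counted genes, and overlaps of the other 8 genes involve no exons.

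Ehd2, at the neck of caveolae, followed the vessel pattern with 807 and 743 CPM in WT and Apoa1bp-/- endothelial cells, 375 and 321 CPM in mural cells and 139 and 79.8 CPM in fibroblasts. Macrophages held 3.20 and 3.44 CPM of it. Pacsin2 varied less between cell types, from 89.1 and 56.1 CPM in mural cells and 67.7 and 49.0 CPM in endothelial cells to 50.7 and 40.1 CPM in macrophages, 39.7 and 24.1 CPM in fibroblasts and 14.3 and 28.7 CPM in T and NK cells. Mural and endothelial Pacsin2 overlapped in both libraries.

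Over the 18 levels of 9 cell types in 2 libraries, the genes most like Cav1 on the log2(CPM + 1) scale were Ece1 (Pearson r 0.96), which encodes an endothelin-converting enzyme, Tcim (0.95), Col4a2 (0.93), Id3 (0.93) and Pakap (0.93). Of the members, Ehd2 was the closest to Cav1 (0.95) and Cav3 was at -0.11. For Cavin1 they were Pls3 (0.94), Pxdn (0.93), Gng11 (0.93), Col4a1 (0.93) and Cdc42bpa (0.92), and Cavin3 reached 0.93. For Cav3 they were Ndufa7 (0.93), Csrp3 (0.92), a muscle LIM protein gene, Atp5l (0.92), Myom2 (0.92) and Drap1 (0.92), and Cavin4 reached 0.80. The points share their libraries and depths, and the values are descriptions. The candidates were 10992 genes at 20 CPM or more in any of the 18 levels. The members and the marker genes of the gates were left out of them. In single endothelial cells thinned to 1000 UMIs, Cav1 and Cavin1 were seen together in 58.1% of WT cells, where the product of their shares is 56.3%, and in 49.2% of Apoa1bp-/- cells, with a product of 47.1%. In mural cells the values were 26.2% and 19.5% in WT and 17.2% and 15.5% in Apoa1bp-/-.

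Between genotypes, 5 of the 7 members at 5 CPM or more were lower in Apoa1bp-/- endothelial cells (by 20% or more) and 1, Cavin3, was higher (by 25% or more). Cav1 had 0.747 of its WT level (0.722 to 0.773), Cav2 0.754 (0.686 to 0.830), Cavin1 0.677 (0.637 to 0.720), Cavin2 0.733 (0.693 to 0.774) and Pacsin2 0.724 (0.563 to 0.936). Ehd2, at 0.921 (0.860 to 0.987), passed neither limit. Cavin3 was at 1.38 of its WT level (1.28 to 1.49), from 890 UMIs in WT and 2584 in Apoa1bp-/-. Of 10326 genes measured in these cells, 35.1% were lower and 18.2% higher by the same limits, and their median log2 ratio was -0.14. The members' median log2 ratio was -0.42. Relative to that all-gene median, 1 of the 7 was lower (Cavin1, -0.42) and 1 higher (Cavin3, 0.61), where 25% of genes were lower and 26.4% higher. On that scale Cav1 was at -0.28, Cav2 at -0.26, Cavin2 at -0.31, Pacsin2 at -0.32 and Ehd2 at 0.02. The sign of Ehd2 therefore depends on whether the all-gene median is subtracted. Pacsin2 fell only just short of the 20% limit on that scale, so the count of 1 lower turns on a small margin. The 10 mural markers summed to 268 CPM in this gate in WT and to 89.8 in Apoa1bp-/- (2 of 10 at 0), and the 10 macrophage markers to 203 and 97.7 CPM. Their part in these ratios was not tested. In endothelial cells thinned to 1000 UMIs, the log2 ratio of Cavin3 was 0.18 in place of 0.46 and it no longer passed the limit.

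**Figure D4:**
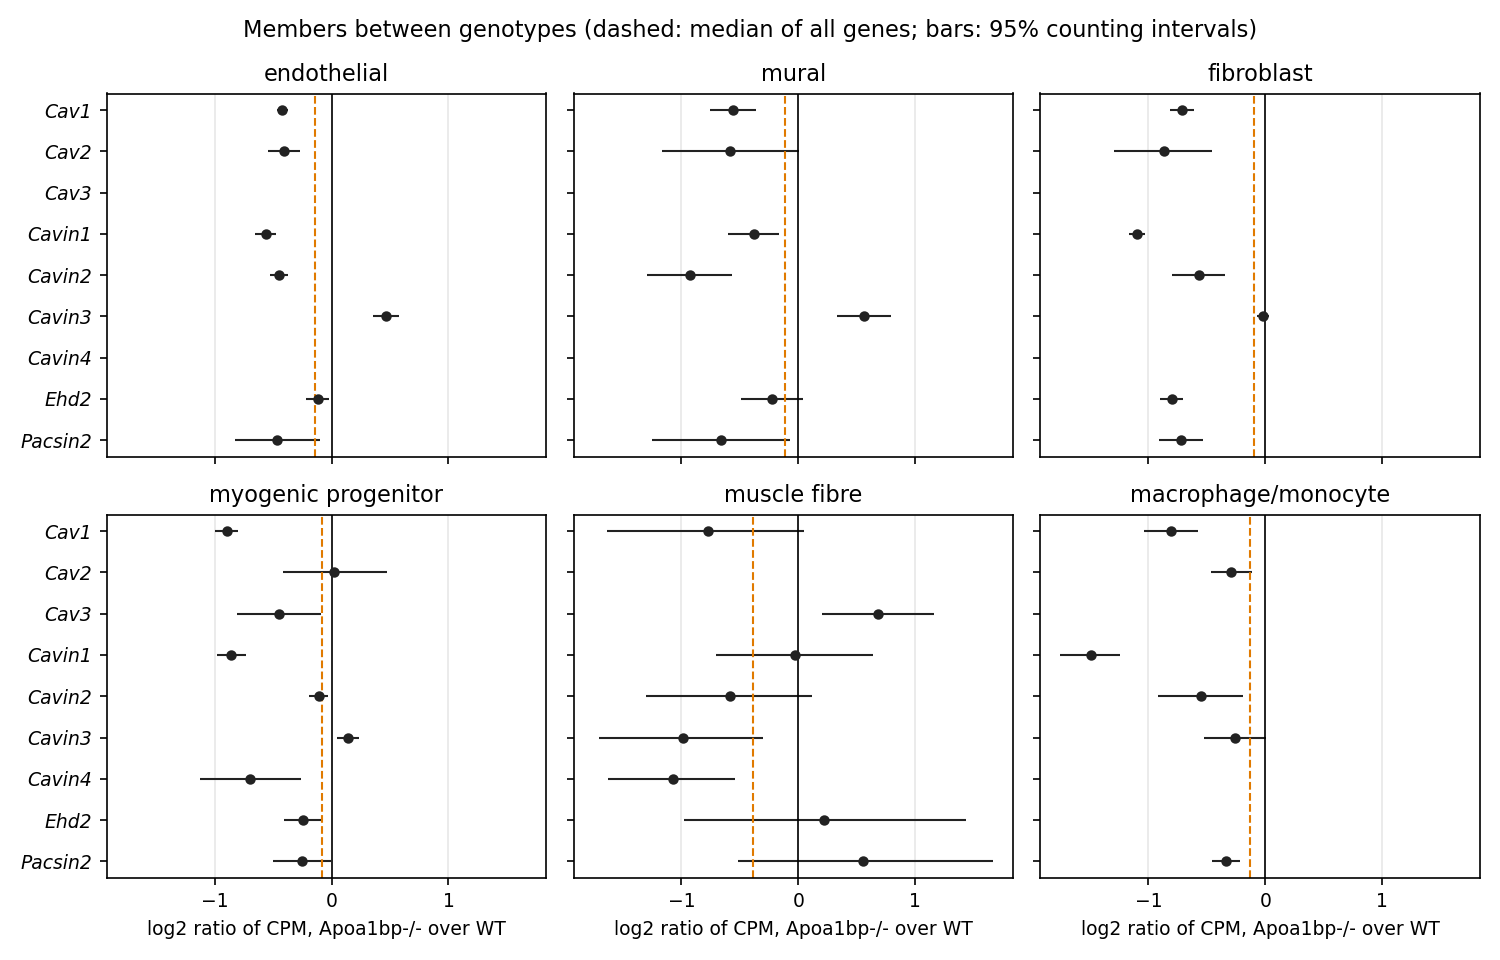
Log2 ratio of CPM, Apoa1bp-/- over WT (x axis), of the members with 20 or more UMIs over both libraries, at 5 CPM or more in either, in 6 cell types. Points have 95% counting intervals, the solid line is 0 and the dashed line the median of all genes measured. In endothelial and mural cells Cavin3 lies right of both lines, and Cav1 and Cavin1 lie left of the dashed line in all panels but fibres, where Cavin1 lies right of it.

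Of the endothelial subsets, arterial and capillary cells had 20 or more cells in each library. In arterial cells (25 WT, 27 Apoa1bp-/-) 6 of 7 members were lower, where 44.4% of genes were, and none was higher, where 35.7% of genes were. The same 6 were lower relative to the all-gene median (36.8% of genes, with 37.3% higher). Arterial Cav1 had 0.605 of its WT level (0.532 to 0.689) and arterial Ehd2 0.692 (0.540 to 0.890), while Cavin3 was at 1.09 (0.802 to 1.49). In capillary cells (239 and 209 cells) 5 of 7 were lower, where 37.2% of genes were, and Cavin3 higher, where 20.8% were. Relative to the all-gene median 3 were lower and 1 higher (27.5% and 28.5% of genes). Capillary cells had Cav1 at 0.777, Cavin1 at 0.674 and Cavin2 at 0.704. Capillary Cavin3 was at 1.46 (1.33 to 1.61) and Ehd2 at 0.968 (0.889 to 1.05). In the smaller subsets Cav1 was at 0.676 (venous), 0.598 (tip) and 0.824 (lymphatic, 0.633 to 1.07), and Cav2 at 1.00 (0.482 to 2.28) in venous cells. Pacsin2 passed no limit in tip (0.833) or lymphatic cells (0.940), and in venous cells it was at 1.21 (0.120 to 59.7) from 1 and 4 UMIs. With arterial and capillary cells weighted equally, Cav1 was at 0.689 and Cavin3 at 1.27. The cycling gate was passed by 19.0% of Apoa1bp-/- and 7.61% of WT endothelial cells. After thinning to 1000 UMIs the shares were 6.47% (4.00 to 9.82) and 3.87% (1.95 to 6.82), so these intervals overlapped. Among endothelial cells outside it, Cav1 had 3456 (WT) and 2801 CPM (Apoa1bp-/-), and Cavin3 was at 565 and 748 CPM. Within it, Cav1 was at 3813 and 2331 CPM, and Cavin3 at 605 and 876 CPM.

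Mural cells repeated the endothelial pattern, with 5 of 7 members lower (37.9% of genes) and Cavin3 higher (25.6% of genes). Cav1 had 0.678 of its WT level (0.592 to 0.776), Cavin1 0.767 (0.659 to 0.893), Cavin2 0.525 (0.409 to 0.675) and Pacsin2 0.630 (0.421 to 0.951). Cav2 was at 0.666, with an interval, 0.445 to 1.01, that reached 1. Cavin3 was at 1.47 (1.26 to 1.73), at 1.32 (1.05 to 1.67) in pericytes and at 1.41 (1.06 to 1.91) in smooth muscle. Relative to the all-gene median of -0.11 (log2), 4 of 7 were lower and 1 higher, where 30.6% of genes were lower and 30.6% higher, and Cavin1 no longer passed. After thinning, 3 of 8 were lower, where 41.2% of genes were. The log2 ratio of Cavin2 was then -0.10 in place of -0.93, that of Pacsin2 -0.18 in place of -0.66 and that of Cavin3 0.12 in place of 0.56, and none of these 3 passed the limit. In cells of 2000 to 10000 UMIs Cavin2 was at -0.21.

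Fibroblasts showed the widest shift, with 6 of 7 members lower, where 30.1% of genes were, and none higher, where 17.8% were. Cavin1 had 0.467 of its WT level (0.446 to 0.490), Cav2 0.547 (0.407 to 0.729), Ehd2 0.574 (0.535 to 0.616), Pacsin2 0.608 (0.534 to 0.691), Cav1 0.609 (0.567 to 0.654) and Cavin2 0.675 (0.576 to 0.789). Cavin3 had 0.988 of its WT level (0.954 to 1.02). The same 6 were lower relative to the all-gene median of -0.10 (log2), where 22.4% of genes were lower and 23.5% higher. With edgeR's TMM factors 6 were lower too, where 24.7% of genes were. The mix of fibroblasts differed: 1190 of 3429 WT cells and 198 of 1252 Apoa1bp-/- cells passed the gate of Pi16 progenitors, where WT Cavin1 was highest, at 602 CPM. Within that subset Cavin1 was at 0.694 (0.636 to 0.757) and Cav1 at 0.564 (0.416 to 0.751). There Ehd2 at 0.884 (0.763 to 1.02), Cavin2 at 0.903 (0.648 to 1.24) and Pacsin2 at 0.862 (0.661 to 1.11) did not pass the limit. In activated fibroblasts (Tnc, Cthrc1 and Postn among the markers) Cavin1 was at 0.660, Cav1 at 0.686, Ehd2 at 0.732 and Pacsin2 at 0.722. Activated Cav2 at 0.911 (0.571 to 1.45) and Cavin2 at 0.893 (0.680 to 1.17) did not pass it. In interstitial fibroblasts Cav1 was at 0.278 (0.230 to 0.332), from 173 to 47.9 CPM, and Cavin1 at 0.497 (0.447 to 0.550). Interstitial Cav2 was at 0.311, Cavin2 at 0.439, Ehd2 at 0.574 and Pacsin2 at 0.643. Cavin3 was at 1.11, 1.26 and 1.03 in these 3 subsets. The share of all genes past the limit was not counted within them, so these subset values have no background beside them.

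Macrophages and monocytes had 4 of 6 members lower, where 28% of genes were, and none higher, where 10.3% were. Relative to the all-gene median of -0.13 (log2) 3 of 6 were lower and none higher (16.2% and 18.7% of genes). Cavin1 had 0.355 of its WT level (0.297 to 0.423), Cav1 0.573 (0.487 to 0.672), Cavin2 0.683 (0.530 to 0.879) and Pacsin2 0.792 (0.731 to 0.858). Cav2 was at 0.818 (0.726 to 0.922). The summed level of the 10 fibroblast markers in this gate was 74.6 (WT) and 28.1 CPM (Apoa1bp-/-), with no marker at 0. That of the 10 mural markers was 30.0 and 18.4 CPM and that of the 10 endothelial markers 20.7 and 18.0 CPM. The part of such RNA in the macrophage values was not tested.

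Myogenic progenitors (1008 and 1214 cells) had 4 of 9 members lower, where 28.4% of genes were, and none higher, where 18% were. The same counts held relative to the all-gene median (22.1% of genes lower and 23.2% higher). Cav1 had 0.537 of its WT level (0.501 to 0.576) and Cavin1 0.553 (0.506 to 0.603), while Cavin2 was at 0.927 (0.877 to 0.980) and Cavin3 at 1.10 (1.03 to 1.18). Cavin4 was at 0.618 (0.460 to 0.833) and Cav3 at 0.731 (0.571 to 0.940). Gated after thinning, Cavin4 had a log2 ratio of 0.10 in place of -0.69, so its direction flips with the gate. Progenitor Cav3, at -0.45 (log2), was at -0.0030 with those gates, at -0.22 without cycling cells and at -2.47 in cells of 2000 to 10000 UMIs. Within satellite cells 4 of 8 members were lower (28.1% of genes) and 1, Cavin3 at 1.29 (1.20 to 1.39), was higher (20.5%), while Cav1 was at 0.638. Within committed myocytes 6 of 8 were lower (31.5% of genes) and none higher (20.1%), with Cav1 at 0.419 and Cavin3 at 0.761 (0.634 to 0.916). Relative to the all-gene median the counts were 3 lower and 2 higher in satellite cells (23.3% and 24.5% of genes) and 5 lower and 0 higher in committed myocytes (25.7% and 25.2%). The mix of stages differed: 749 WT and 775 Apoa1bp-/- cells passed the satellite-cell gate, and 179 and 325 the committed-myocyte gate. Cav3 was at 0.479 (0.268 to 0.852) in satellite cells and 0.653 (0.490 to 0.878) in committed myocytes. Committed Cavin4 was at 0.517 (0.366 to 0.736), and satellite Cavin4, under 5 CPM, had 18 and 8 UMIs. The mural markers summed to 218 CPM in WT and 116 CPM in Apoa1bp-/- progenitors and the fibroblast markers to 209 and 113 CPM. Their part in the lower Cav1 and Cavin1 was not tested. The cycling gate was passed by 24.2% of Apoa1bp-/- and 8.53% of WT progenitors, whose median depths were 8343 and 4266 UMIs. After thinning the shares were 10.7% (8.97 to 12.5) and 3.03% (2.05 to 4.30). In progenitors outside the cycling gate Cav1 had 272 (WT) and 132 CPM (Apoa1bp-/-).

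In muscle fibres the 2 muscle forms went opposite ways. Cav3 was at 1.60 of its WT level (1.15 to 2.24) and Cavin4 at 0.475 (0.324 to 0.687). Cavin3 was also lower, at 0.504 (0.307 to 0.809). In all, 3 of 9 members were higher, where 20.4% of genes were, and 4 lower, where 54% were. The median of all genes was -0.39 (log2), and relative to it 5 were higher (34.4% of genes) and 3 lower (37.2%). One of those higher, Cav2, had 0 WT and 4 Apoa1bp-/- UMIs and is given no fold. The direction of Cav3 depended on how cells were weighted: its log2 ratio was 0.67 over summed UMIs, -0.25 as a mean over cells and -0.60 in cells of 2000 to 10000 UMIs. Cav3 was detected in 18.3% of WT and 13.7% of Apoa1bp-/- fibre barcodes, and Cavin4 in 28.1% and 9.64%. The fibres differed in some other muscle genes as well. Acta1, skeletal actin, had 18678 CPM in the WT barcodes and 39541 in those of Apoa1bp-/-, and Myh8, perinatal myosin, had 973 and 76.9 CPM. Myh4 had 1369 and 597 CPM and Myh1 282 and 156 CPM. Closer between the libraries were Ckm (10741 and 11374 CPM), Tnnt3 (15798 and 17369), Myog (536 and 484) and Myh3 (290 and 226). Whether the fibre makeup accounts for the Cav3 and Cavin4 values was not tested.

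T and NK cells had 5 members at 5 CPM or more, 2 lower and 2 higher (34.1% and 29% of genes, or 30.1% and 31% relative to the all-gene median), each from 22 UMIs or fewer per library and each with an interval that held 1. Over the 7 cell types, Cav1 was below its WT level in all 7, with 5 intervals below 1, and Cavin1 in all 7, with 5. Cavin1 stood above the all-gene median in 1 of them, muscle fibres. Cavin2 was below in 6 of 7. Cavin3 was above in 3 of 7, with all 3 of those intervals above 1, and below in 4, with 1 interval below 1. The all-gene median was itself below 0 (log2) in each of the 7 types, from -0.06 in T and NK cells to -0.39 in muscle fibres. The share of all genes below WT in all 7 types was not counted, so these counts have no background beside them.

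Ratios of all genes also varied with exon length, and the part of length in the Cavin3 ratio was not tested. In endothelial cells the median log2 ratio was 0.10 in the shortest of 5 equal bins of exon length (up to 2520 bases) and -0.05, -0.18, -0.23 and -0.29 in the next. Cavin3 (1662 bases), Cav3 (1157) and Cavin4 (2054) are in the shortest bin. Cavin2 (3055), Cav2 (3335), Cav1 (3444) and Cavin1 (3587) are in the next, and Pacsin2 (4908) and Ehd2 (5119) in the middle one. Centred on its own bin, Cavin3 was at 0.37 in endothelial and 0.44 in mural cells (log2) and passed the limit in both. With that centring 4 members were lower in endothelial cells, where 24.1% of genes were, and 6 in fibroblasts, where 20.9% were. This setting was added after the data were seen.

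**Figure D5:**
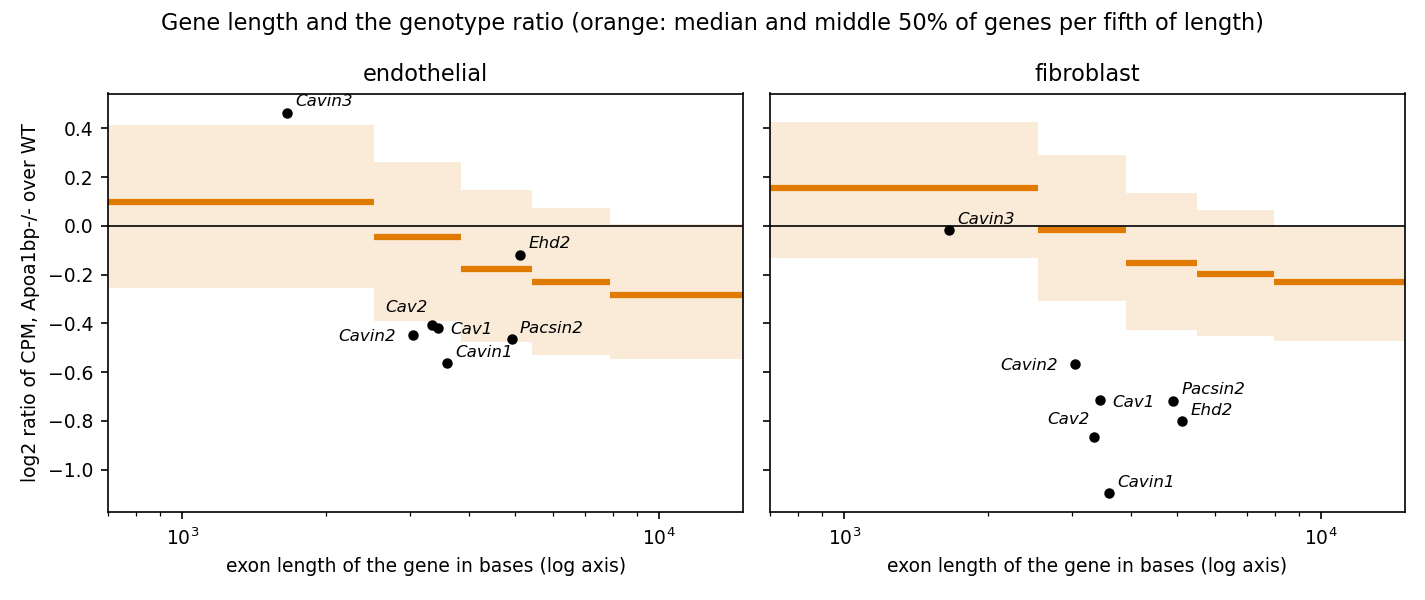
Log2 ratio of CPM, Apoa1bp-/- over WT (y axis), against exon length in bases (x axis, log scale) for the members in endothelial cells and fibroblasts. Orange lines and bands are the median and the quartile range of all genes in each bin of length. Medians go from 0.10 to -0.29 in endothelial cells, and in fibroblasts all members but Cavin3 lie below the band of their bin.

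Genes that work with caveolae or in other membrane routes were set beside the members in endothelial cells, where 35.1% of all genes were lower, 18.2% were higher and the median log2 ratio was -0.14. Of 12 measured residents and partners of endothelial caveolae, 8 were lower and none higher, with a median log2 ratio of -0.47. Relative to the all-gene median 6 of the 12 were lower, where 25% of genes were. Insr, the insulin receptor, was at 0.410 of its WT level (0.268 to 0.626), Cd36, a fatty acid receptor, at 0.780 (0.745 to 0.816, from 1954 to 1524 CPM), and Plvap, which forms the diaphragms of caveolae, at 1.12 (0.994 to 1.27). Of 7 relatives of the accessory proteins, 3 were lower, with a median of -0.29, and Ehd4 was at 1.04. Of 7 flotillin-raft genes 3 were lower, with a median of -0.17: Flot2 was at 0.509 (0.374 to 0.692) and Prnp at 1.08. Of 13 clathrin-coat genes 6 were lower and 1 higher, with a median of -0.25, from Ap2b1 at 0.526 to Clta, a light chain, with 456 (WT) and 570 CPM (Apoa1bp-/-). The shares of the relatives, flotillin and clathrin lists that were lower lie near that of all genes. Relative to the all-gene median the lower ones were 2 of 7, 2 of 7 and 4 of 13. In muscle fibres, where 54% of genes were lower with a median of -0.39, 8 of 15 sarcolemma and T-tubule genes were lower and 2 higher, with a median of -0.37, and Bin1, which shapes T-tubules, was at 0.877 (0.727 to 1.06).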

How the data were processed

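The genes and lists were chosen with earlier results of these data known. What the authors deposited are whole-number counts of UMIs for each gene in each barcode, without normalization. Cell Ranger was the tool: the file headers name 5.0.0, the submitters' processing notes 2.1.1, and the difference was not settled. No genome build was given in the sources used here. GENCODE M21 gave exon lengths, and RefSeq the start-site windows.

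Barcodes with under 200 genes (49 WT, 31 Apoa1bp-/-), over 10% mitochondrial UMIs (149, 197) or a Scrublet doublet call (1473, 10.5%; 575, 6.14%) were removed. A cell took the type with the most of 10 markers detected, if 3 or more and no other type had over 0.5 as many (progenitors and fibres were not held against each other), and 1761 and 1278 cells stayed ungated. Subsets needed 2 of 6 markers and cycling 3 of 10. Types with 100 or more cells in each library were compared. UMIs were summed per type and divided by all its UMIs. Ratios carry exact conditional 95% intervals, and log2 ratios a prior count of 0.5. A gene was measured at 5 CPM or more in either library. All 9 members were described in each cell type. Of other lists, the genes with the most UMIs and with the largest and smallest ratio could be named, as could the 5 genes most correlated with Cav1, Cav3 and Cavin1. Ratio intervals were tested on simulated Poisson counts, which follow the model that the intervals assume. That test checks the calculation only, since it held no variation between cells, mice or libraries. Python 3.11.15, scanpy 1.11.5, scipy 1.17.1, R 4.3.3 and edgeR 4.0.16 (TMM factors only) were used. The depth band of 2000 to 10000 UMIs and the centring by length were added after the data were seen.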

Additional observations from a re-analysis of the deposited data

Results flagged for a closer look

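Cav3 was on opposite sides of 1 in 2 stages of one lineage: its Apoa1bp-/- level was 1.60 of WT in muscle fibres and 0.731 of WT in myogenic progenitors, with counting intervals on either side of 1. The fibre direction turned in other settings: the log2 ratio was -0.25 as a mean over cells and -0.60 in cells of 2000 to 10000 UMIs, and 13.7% of Apoa1bp-/- against 18.3% of WT fibre barcodes held a Cav3 UMI. In progenitors it was -0.0030 with gates on thinned cells. The mix of progenitor stages differed between the libraries, and Cav3 was at 0.479 of WT in satellite cells and 0.653 in committed myocytes. Cavin3 was at 1.38 of WT in endothelial cells and 1.47 in mural cells, but 0.504 in muscle fibres. After thinning to 1000 UMIs its log2 ratio was 0.18 in endothelial and 0.12 in mural cells, neither past the limit. Neither difference was tested, since each genotype is 1 library.

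Cells left ungated, which enter no comparison above, held Cav1 at 426 CPM in WT and 432 CPM in Apoa1bp-/-. Most of it was in cells whose leading list was endothelial: 122 WT cells at 2829 CPM and 141 Apoa1bp-/- cells at 1881 CPM. In those cells Cavin3 was at 498 and 591 CPM, Cavin1 at 828 and 543 CPM and Cavin2 at 1013 and 720 CPM.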

How the results depend on the processing

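No paired analysis was possible because each genotype is 1 library and the labels give no replicate numbers. Of the members' log2 ratios under other settings, 545 stayed within the counting interval and 94 moved outside it; the second number includes uncalled ratios that changed sign, such as Ehd2 in endothelial cells. Another 10, called at first, reversed. They were, as a mean over cells, Cavin1 in T/NK (0.15), Cav3 in muscle fibre (-0.25) and Pacsin2 in muscle fibre (-0.23). With cells thinned to 1000 UMIs it was Pacsin2 in muscle fibre (-0.40). With gates on thinned cells they were Cavin4 in myogenic progenitor (0.10) and Cavin2 in muscle fibre (0.037). In cells of 2000 to 10000 UMIs they were Cav1 (3.11) and Cavin2 (-0.29) in T/NK, and Cav3 (-0.60) and Pacsin2 (-2.06) in muscle fibre. The cause was not tested.

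The endothelial median log2 ratio was -0.53 after thinning and -0.26 with TMM factors. Shares in brackets are those of all genes in the same setting. In endothelial cells 0 members were higher after thinning (30%) and 0 with a limit of 1.5-fold (7.96%), and 1 was lower when centred on all genes (25%), 1 with TMM factors (23.8%) and 0 with the limit of 1.5-fold (18.3%). In mural cells 2 of 8 members were higher as a mean over cells (30.8%), without cycling cells (24.9%) and in cells of 2000 to 10000 UMIs (27.3%). With a floor of 1 CPM 2 of 8 were higher as well (26.5%), and at 1.5-fold 0 of 7 (14.8%). There 3 of 8 were lower as a mean over cells (38.5%), after thinning (41.2%) and in the depth band (36.5%), and 2 of 7 at 1.5-fold (23.8%). The fibroblast median was -0.52 and the fibre median -1.07 in the depth band. In macrophages 1 of 9 was higher with a floor of 1 CPM (11.7%). There 1 of 2 was lower with a floor of 20 CPM (24.3%) and 2 of 6 at 1.5-fold (8.72%). In progenitors 1 of 9 was higher after thinning (24.1%) and 2 of 6 were lower with the floor of 20 CPM (25%). Cav1 in endothelial over mural cells (log2, 2.26 in WT and 2.40 in Apoa1bp-/-) was 2.09 in WT when cells were averaged, 2.09 when thinned, and 2.13 in Apoa1bp-/- in the depth band. Cav3 in fibres over progenitors was 2.00 with gates on thinned cells, 3.35 after thinning and 2.28 in the depth band in WT, and 2.40 with gates on thinned cells and 3.49 as a mean over cells in Apoa1bp-/-. Levels under about 5 CPM in small types rest on a few UMIs.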
